A study of Mus musculus with 7 samples.

Results

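Lysosomes are the acidic compartments in which a phagocyte breaks down what it has taken up, and 52 genes of that compartment were followed here in Bodipy+ microglia sorted from the brain of old and young mice after stroke. The genes were listed by name (cathepsins and other peptidases, glycosidases and sulfatases, lipid hydrolases with their cofactors, lysosomal membrane proteins, MiT/TFE transcription factors and subunits of the vacuolar proton pump), and each name was looked up among the 50686 genes of the deposited tables. All 52 were found, and all 52 passed the filter on low values (more than 10 expected counts in 1 library or more). Bodipy is a dye of neutral lipids, so the cells sorted as Bodipy+ are microglia that carry lipid droplets. The 3 Old libraries (mice 2posI, 3posI and 4posI) came from male C57BL/6 mice of 21 to 22 months, and the 4 Young libraries (mice 14C, 18C, 23C and 29C) from males of 3 to 4 months. Every mouse, at both ages, had a middle cerebral artery occluded for 45 min and was examined at day 4, so neither age has an uninjured control here. Each library stands for 1 mouse, from cells gated on CD11b and CD45 in dissected forebrain.

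A cell keeps its lysosomes acidic with the vacuolar ATPase, a rotary pump whose cytosolic V1 domain splits ATP and turns a membrane-bound V0 domain that moves protons inward. Most of the hydrolases work only at that low pH, and loss of single ones causes the lysosomal storage diseases, many of which show early in the brain and its phagocytes. The factors TFEB, TFE3, TFEC and MITF bind a short palindromic E-box in the promoters of many lysosomal genes and can switch on enzymes and pump together.

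RefSeq promoter sequences (from 250 bases before to 50 after a RefSeq start site, build GRCm38.p6) were at hand for 42 of the 52 members. That site need not be the outer end of the gene, and for Ctsa and Atp6v0e the sequence lay inside the gene. The E-box core CACGTG, which reads the same on both strands, was present in 14 of the 42 members (33.3%), against 2187 of 27025 genes with a promoter (8.09%). These 27025 genes were not limited to those tested in these cells, and the share over the tested genes is not given. The longer form TCACGTGA, which contains the core, was present in 7 members (16.7%), namely Ctsa, Ctsd, Gla, Mcoln1, Atp6v0d1, Atp6v0e and Atp6v1a, against 304 of all genes (1.12%). The core flanked by GT before and AC after it, which extends that form further, was present in 0 of the 42 members, against 100 of all genes (0.37%). The windows below show the longer form in a peptidase, a glycosidase, a membrane channel and a pump subunit, and the core in Naglu, which was added because it had the smallest adjusted p of the members. They are printed 5′ to 3′ on the strand of the gene, and capitals mark the motif. The positions are chr7:142387897-142387948 (minus strand) for Ctsd, chr2:164833738-164833772 (plus strand) for Ctsa, chrX:134601204-134601255 and chrX:134601171-134601222 (minus strand) for the pair of matches in Gla, chr8:3500451-3500502 (plus strand) for Mcoln1, chr16:44139362-44139413 (minus strand) for Atp6v1a and chr11:101069999-101070048 (plus strand) for Naglu.
Ctsd: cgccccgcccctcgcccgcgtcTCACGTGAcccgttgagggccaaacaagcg
Ctsa: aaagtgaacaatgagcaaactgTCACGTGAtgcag
Gla, first match: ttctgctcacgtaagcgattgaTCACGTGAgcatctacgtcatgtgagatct
Gla, second match: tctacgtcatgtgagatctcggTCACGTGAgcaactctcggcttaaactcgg
Mcoln1: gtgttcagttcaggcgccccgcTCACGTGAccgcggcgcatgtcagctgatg
Atp6v1a: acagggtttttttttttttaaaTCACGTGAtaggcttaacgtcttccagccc
Naglu: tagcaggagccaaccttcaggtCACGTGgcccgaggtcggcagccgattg

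A match is a description of the letters in the window and not evidence of binding. The 14 members with the core did not share a direction with age: 6 had a higher and 8 a lower level in Old mice, with a median log2 fold change of -0.04 and a range of -0.65 to 0.40. Of the 28 members with a promoter but no core, 15 were higher and 13 lower, with a median of 0.08.

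Levels were compared between the ages as CPM, the counts of a gene relative to the TMM-scaled total of its library, and log2 fold changes are given as Old minus Young, with their standard error and with p adjusted over all genes tested. In the edgeR quasi-likelihood test no member passed an adjusted p of 0.05 in either direction, while 0.57% of all 17559 autosomal genes passed it as higher and 0.233% as lower in Old mice. The smallest adjusted p among the members were 0.0611 for Naglu and 0.0927 for Atp6v0a1, both lower in Old mice, so that 2 of the 47 autosomal members (4.26%) were under 0.1, as were 3.63% of all genes. At an unadjusted p under 0.05, 9 autosomal members were higher (19.1%, against 10.1% of all genes) and 4 lower (8.51%, against 8.79%). All 3 Old libraries lay above all 4 Young ones for 6 autosomal members (12.8%, against 8.67%) and below them for 5 (10.6%, against 9.07%). The log2 fold change was above 0 for 26 of the 47 (55.3%, against 48.8%). The 5 X-linked members (Gla, Ids, Lamp2, Tfe3 and Atp6ap1) were taken from the same fit with the X, Y and mitochondrial genes kept, where 0.754% of 18173 genes passed an adjusted p of 0.05 and 18.7% an unadjusted one. Of these 5, none passed the adjusted threshold, and Ids (higher) and Tfe3 (lower) were under 0.05 unadjusted. Other tools called a few members: DESeq2 put 5 of the 47 autosomal members past an adjusted p of 0.05 (10.6%, against 7.97% of all genes), Ctsd, Naglu and Atp6v0a1 as lower and Npc2 and Atp6v1g1 as higher, and it also called the X-linked Tfe3 as lower. limma-voom with sample quality weights called Naglu alone, where it called 318 of the 17559 autosomal genes. Plain limma-voom called no member and 143 of those genes.

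The unadjusted counts over all 52 members, 10 higher and 5 lower, moved with the scale and with single mice. They were 6 higher and 9 lower on log2(TPM + 1), a per-length scale. The median log2 fold change over all genes was also lower on that scale, at -0.07 against -0.01 in the main fit. Shares of all genes at this threshold are not given for that scale or with a library left out. The counts there do not set the members apart from other genes. The number higher was 4 without 14C, 5 without 18C, 3 without 2posI and 4 without 3posI, but 14 without 4posI. The number lower was 3 without 29C.

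**Figure D1:**
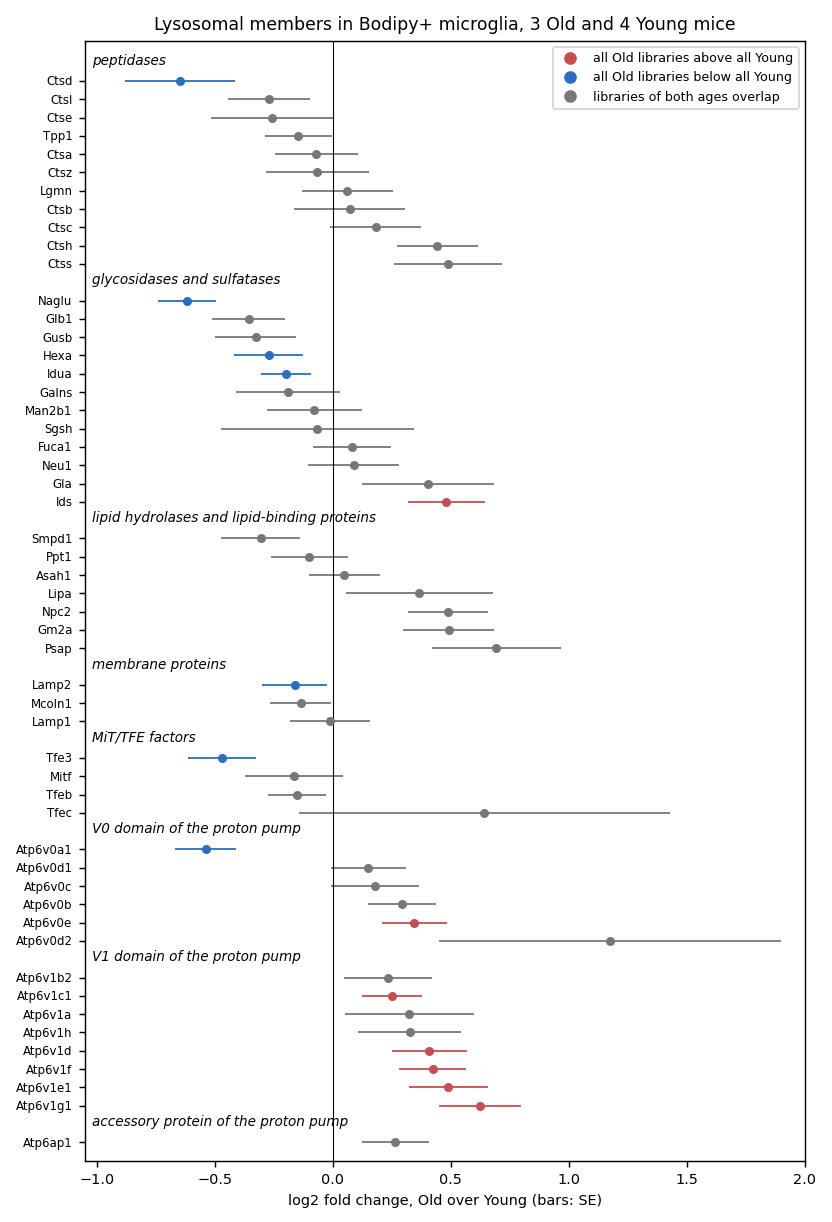
Log2 fold change of each of the 52 members, Old over Young, on the x axis, with bars for the standard error, grouped by role and ordered within each role. Points of the 8 V1 subunits all lie to the right of 0, from 0.23 to 0.62 on this CPM scale, while 8 of the 12 glycosidases and sulfatases lie to the left, and colour marks the members whose Old and Young libraries do not overlap.

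One Old library stood apart in its monocyte markers. The 6 monocyte markers (Ly6c2, Ccr2, Plac8, Chil3, Vcan and F10) summed to 1841 TPM in 3posI. Their sum was 68.6 TPM in 2posI, 117 TPM in 4posI and 16.9 to 67.9 TPM in Young libraries. All 6 had a higher fitted level in Old mice, and Ly6c2 and Plac8 had all Old libraries above all Young ones. The 6 dendritic cell markers summed to 2.31 to 4.11 TPM in Young and to 9.31 to 38.7 TPM in Old libraries, again with 3posI highest. Of these, 4 were higher and 2 (Zbtb46 and Xcr1) lower in Old mice, and Ccr7 made up 29.5 of the 38.7 TPM in 3posI. Border-associated macrophage markers summed to 1563 TPM in 3posI, of which Pf4 gave 775 TPM, and to 467 to 888 TPM in the other libraries, with 5 of 6 higher in Old mice by their fitted values. T and NK cell markers, of which all 6 were higher in Old mice, stayed at 0.41 to 0.90 TPM in Young and 1.10 to 5.05 TPM in Old libraries. The sum of the 6 neutrophil markers was highest in a Young library, 29C, at 323 TPM. It was 3.93 to 48.2 TPM in the other Young libraries and 86.3 to 273 TPM in Old ones, and all 6 had a higher fitted level in Old mice. All 5 endothelial markers had a lower fitted level in Old mice, with sums of 41.7 to 105 TPM in Young and 28.5 to 42.0 TPM in Old libraries. The 7 microglial markers were present in every library, P2ry12 and Tmem119 included, and summed to 3606 to 8527 TPM in Young and 2126 to 5782 TPM in Old libraries, with 3posI lowest of the Old and 23C lowest of the Young. In such bulk samples fewer cells of a type and less RNA per cell cannot be told apart. The part of these markers in the results on lysosomal genes was not tested, and values without 3posI are given beside those that moved most when it was left out. Total expected counts ran from 36574083 to 53002386 per library.

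Of the 15 proton pump members, 14 had a higher level in Old mice (median log2 fold change 0.32, against -0.01 over all genes), and 6 of the 15 had all Old libraries above all Young ones, as had 8.67% of all genes. Library by library, 14 of the 15 lay above the highest Young value in 3posI (30.1% of all genes did), 11 in 2posI (28.1% of all genes) and 6 in 4posI (24.1% of all genes). Both 2posI and 4posI lay above the Young range for 6 of the 15, where 13.8% of all genes did so. Without 3posI the fit put 11 of the 15 higher, with a median of 0.19, and on log2(TPM + 1) 13 of the 15 were higher, with a median of 0.18.

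All 8 subunits of the V1 domain, which splits ATP, had a higher level in Old mice, with log2 fold changes of 0.23 to 0.62 and a median of 0.37, while on log2(TPM + 1) 7 of the 8 did and Atp6v1a stood at the Young level. Of these 8, 5 had all Old libraries above all Young ones (8.67% of all genes), in each case with 4posI as the lowest Old library, and the gap to the highest Young library was 0.095 CPM for Atp6v1c1, 0.69 CPM for Atp6v1e1, 1.96 CPM for Atp6v1d, 3.97 CPM for Atp6v1f and 20.4 CPM for Atp6v1g1. Each of these gaps was smaller than the range of the Young libraries, which was 20.5 CPM for Atp6v1e1 and 65.5 CPM for Atp6v1g1. Without 3posI 6 of the 8 stayed above 0, with a median of 0.23, whereas Atp6v1a and Atp6v1h then stood at -0.05 and -0.02.

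Atp6v1g1 (chromosome 4, 63544772 to 63550750) encodes the G subunit of the peripheral stalk that holds V1 and V0 together. It had 267, 241, 303 and 306 CPM in the Young libraries 14C, 18C, 23C and 29C and 466, 497 and 327 CPM in the Old libraries 2posI, 3posI and 4posI, an order kept for every gene below. The lowest Old library, 4posI, was thus above the highest Young one, and the mean was 279 ± 31.3 CPM (SD, n = 4) in Young and 429.9 ± 90.8 CPM (SD, n = 3) in Old mice, a ratio of 1.54 between the ages and a log2 fold change of 0.62 ± 0.18 (SE), at an adjusted p of 0.125 by edgeR. Without 3posI the log2 fold change was 0.51. Its counts were not whole in any library, as happens where RSEM divides fragments between similar loci, so its level is uncertain.

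Atp6v1e1 (chromosome 6, 120794305 to 120822793), the E subunit of the same stalk, followed. In Young libraries Atp6v1e1 reached 128, 118, 138 and 117 CPM, and in Old libraries 166, 223 and 138 CPM. Young mouse 23C and Old mouse 4posI nearly touched, and the widest gap was to 3posI. Mean Atp6v1e1 was 125 ± 9.66 CPM (SD, n = 4) in Young and 176 ± 43.3 CPM (SD, n = 3) in Old mice, for a log2 fold change of 0.49 ± 0.17 (SE), at an adjusted p of 0.176 by edgeR, or 0.28 without 3posI. Atp6v1f (chromosome 6, 29467718 to 29470512) belongs to the central rotor. Its levels were 195, 174, 183 and 211 CPM in Young mice and 294, 259 and 215 CPM in Old mice. Here 2posI and not 3posI was the highest Old library, and the log2 fold change held at 0.42 without 3posI. Its mean was 191 ± 15.8 CPM (SD, n = 4) in Young and 256 ± 39.7 CPM (SD, n = 3) in Old mice, for a log2 fold change of 0.42 ± 0.14 (SE), at an adjusted p of 0.17 by edgeR.

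Atp6v1d (chromosome 12, 78840725 to 78861638) forms the rotor shaft. The Young libraries held 121, 101, 133 and 132 CPM of it and the Old ones 158, 192 and 135 CPM. The Old libraries again lay above the Young ones, 4posI by a small margin. Mean Atp6v1d was 122 ± 14.7 CPM (SD, n = 4) in Young and 162 ± 29.0 CPM (SD, n = 3) in Old mice, for a log2 fold change of 0.41 ± 0.16 (SE), at an adjusted p of 0.214 by edgeR, or 0.27 without 3posI. Atp6v1c1, which can detach and so switch the pump off, had the same order of libraries at a smaller difference, from 251 ± 20.1 CPM (SD, n = 4) in Young to 298 ± 27.7 CPM (SD, n = 3) in Old mice. The ATP-splitting subunits themselves, Atp6v1a and Atp6v1b2, and the regulatory Atp6v1h had Old values that overlapped the Young ones, with log2 fold changes of 0.32, 0.23 and 0.33, of which Atp6v1b2 stood at 0.06 without 3posI.

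**Figure D2:**
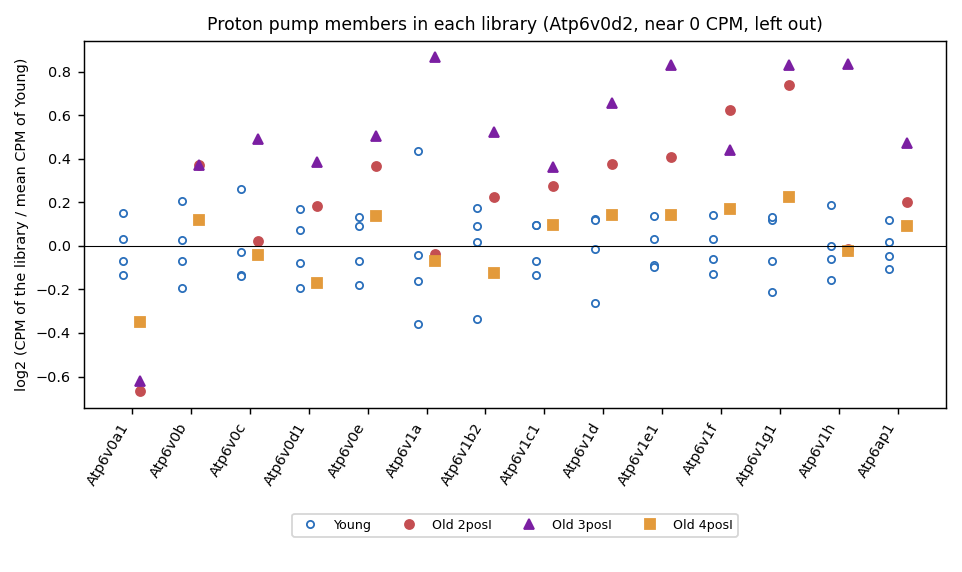
Level of 14 proton pump members in each library on the y axis, as log2 of its CPM over the mean CPM of the Young libraries, with open circles for Young mice and 1 symbol for each Old mouse. Triangles (3posI) are uppermost for most subunits, squares (4posI) sit closest to the Young circles, and Atp6v0a1 is the one member with all 3 Old libraries below all Young ones.

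The membrane-bound V0 domain was split. Atp6v0a1 (chromosome 11, 101009452 to 101063719) encodes one of the alternative a subunits, which form the proton half-channels and direct the pump to a membrane. Atp6v0a1 was at 133, 143, 156 and 128 CPM in Young and 88.1, 91.2 and 109.8 CPM in Old libraries. Every Old library was below every Young one. Its mean was 140.0 ± 12.3 CPM (SD, n = 4) in Young and 96.4 ± 11.8 CPM (SD, n = 3) in Old mice, a ratio of 0.69 between the ages and a log2 fold change of -0.54 ± 0.13 (SE), at an adjusted p of 0.0927 by edgeR. Fits that omitted 1 of the 7 libraries gave -0.65 to -0.48. The alternative a subunits that were not members gave overlapping libraries: Tcirg1 (a3) had a log2 fold change of -0.17 ± 0.20 (SE), at an adjusted p of 0.679 by edgeR and Atp6v0a2 one of -0.31 ± 0.22 (SE), at an adjusted p of 0.475 by edgeR. Tcirg1 was the most abundant of these a subunits per length, at 339 TPM in Young and 284 TPM in Old mice, against 91.7 and 53.2 TPM for Atp6v0a1.

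The other 5 V0 members were higher in Old mice by their fitted values, and 4 of them without 3posI, where the median of all 6 went from 0.24 to 0.13. Atp6v0e (chromosome 17, 26663231 to 26699647), a small subunit next to the rotor ring, came closest to a call. In Young libraries Atp6v0e reached 201, 186, 231 and 224 CPM, and in Old libraries 271, 299 and 231 CPM. Old library 4posI was above the highest Young library by 0.59 CPM. Mean Atp6v0e was 210.2 ± 20.7 CPM (SD, n = 4) in Young and 267 ± 34.0 CPM (SD, n = 3) in Old mice, for a log2 fold change of 0.35 ± 0.14 (SE), at an adjusted p of 0.229 by edgeR, or 0.26 without 3posI. The ring subunits Atp6v0b and Atp6v0c had log2 fold changes of 0.29 and 0.18, and Atp6v0d1, which links ring and rotor, one of 0.15, but without 3posI these were 0.25 (Atp6v0b), -0.01 (Atp6v0c) and 0.02 (Atp6v0d1). Atp6v0d2, the d subunit known from osteoclasts, was the rarest member, at 1.08 ± 0.76 CPM (SD, n = 4) in Young and 2.46 ± 1.61 CPM (SD, n = 3) in Old mice. Atp6ap1 (X chromosome, 74297097 to 74304721), an accessory protein of pump assembly, had 459, 440.2, 514 and 479.7 CPM in the Young libraries 14C, 18C, 23C and 29C and 544, 657 and 504 CPM in the Old libraries 2posI, 3posI and 4posI. These overlapped through 23C and 4posI, and the log2 fold change was 0.26 ± 0.14 (SE), at an adjusted p of 0.355 by edgeR, and 0.15 when 3posI was left out.

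Outside the pump, 37 members were split into 15 higher and 22 lower in Old mice, with a median log2 fold change of -0.07. Their Old libraries differed: 4posI was below all Young libraries for 19 of the 37 (51.4%, against 23.8% of all genes) and above them for 1 (2.7%, against 24.1%). Library 2posI was below for 11 (29.7%, against 30.7% of all genes) and above for 12 (32.4%, against 28.1%). Library 3posI was below for 15 (40.5%, against 31.1%) and above for 15 (40.5%, against 30.1%). Only Ids had all 3 above and Ctsd, Hexa, Idua, Naglu, Lamp2 and Tfe3 had all 3 below. Over all autosomal genes 8.67% had all 3 above and 9.07% all 3 below.

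Peptidases showed no shared direction, with 5 of 11 higher and 6 lower (3 and 8 on log2(TPM + 1)) and a median log2 fold change of -0.07. They included the most abundant lysosomal transcripts of these cells. Ctsd (chromosome 7, 142375911 to 142388038), the aspartic protease cathepsin D, ranked first of the 52 members by TPM and was lower in every Old library. Its levels were 41208, 44410.0, 47850.3 and 52208 CPM in Young mice and 31941, 25111 and 31864 CPM in Old mice. Its mean was 46419 ± 4717 CPM (SD, n = 4) in Young and 29638 ± 3921 CPM (SD, n = 3) in Old mice, a ratio of 0.64 between the ages and a log2 fold change of -0.65 ± 0.23 (SE), at an adjusted p of 0.191 by edgeR. Per length, the deposited TPM gave 28776, 31942, 34021 and 33999.9 in the Young libraries and 19463, 15944 and 22664 in the Old ones, so that 1 gene held 3.22% of all TPM in Young and 1.94% in Old mice. Leaving out 3posI, its lowest library, left the log2 fold change at -0.54. Ctsd shares 34.4% of its exon bases with the readthrough gene Gm49369 on the same strand, to which RSEM gave a mean of 55.3 counts in Young and 19.4 in Old mice.

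Cathepsin S and cathepsin B, both cysteine proteases, came next by TPM. Ctss (chromosome 3, 95526786 to 95556403), which stays active at neutral pH, had 6569, 6742, 4676 and 7445 CPM in Young and 10625, 8718 and 7378 CPM in Old libraries. The Old values overlapped the Young ones through 4posI, and the log2 fold change was 0.49 ± 0.23 (SE), at an adjusted p of 0.294 by edgeR. For Ctsb (chromosome 14, 63122462 to 63145923) the libraries held 17057, 14439, 21299 and 20136 CPM in Young and 19625, 21938 and 15911 CPM in Old libraries. These fully overlapped, and the log2 fold change was 0.07 ± 0.23 (SE), at an adjusted p of 0.895 by edgeR. The sign for Ctsb turned with the scale, from 0.07 in the main fit to -0.02 on log2(TPM + 1). Ctsh (chromosome 9, 90054152 to 90076089), an aminopeptidase, was highest in 2posI and 3posI. The Young libraries held 883, 775, 858 and 896 CPM of it and the Old ones 1242, 1341 and 892 CPM. Old mouse 4posI fell within the Young range, just under 29C. Mean Ctsh was 853 ± 54.5 CPM (SD, n = 4) in Young and 1158 ± 236 CPM (SD, n = 3) in Old mice, for a log2 fold change of 0.44 ± 0.17 (SE), at an adjusted p of 0.217 by edgeR, or 0.32 without 3posI.

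In the remaining peptidases the differences were smaller: Ctsa, Ctsc, Ctse, Ctsl, Ctsz, Lgmn and Tpp1 had log2 fold changes of -0.27 (Ctsl) to 0.18 (Ctsc), all with overlapping libraries. Without 3posI Ctsc was at 0.02 and Ctsz turned from -0.07 to 0.09. Legumain (Lgmn), which processes the cathepsins, was at 7059 ± 756 CPM (SD, n = 4) in Young and 7362 ± 1035 CPM (SD, n = 3) in Old mice. The summed TPM of all 52 members was 70858 to 79038 in Young and 63661 to 65902 in Old libraries, with no overlap. Without Ctsd the other 51 members summed to 40869 to 45038 TPM in Young and 42971 to 47717 TPM in Old libraries, and the other 10 peptidases to 26794 to 30660 TPM (Young) and 28222 to 31253 TPM (Old), so that both sums overlapped.

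**Figure D3:**
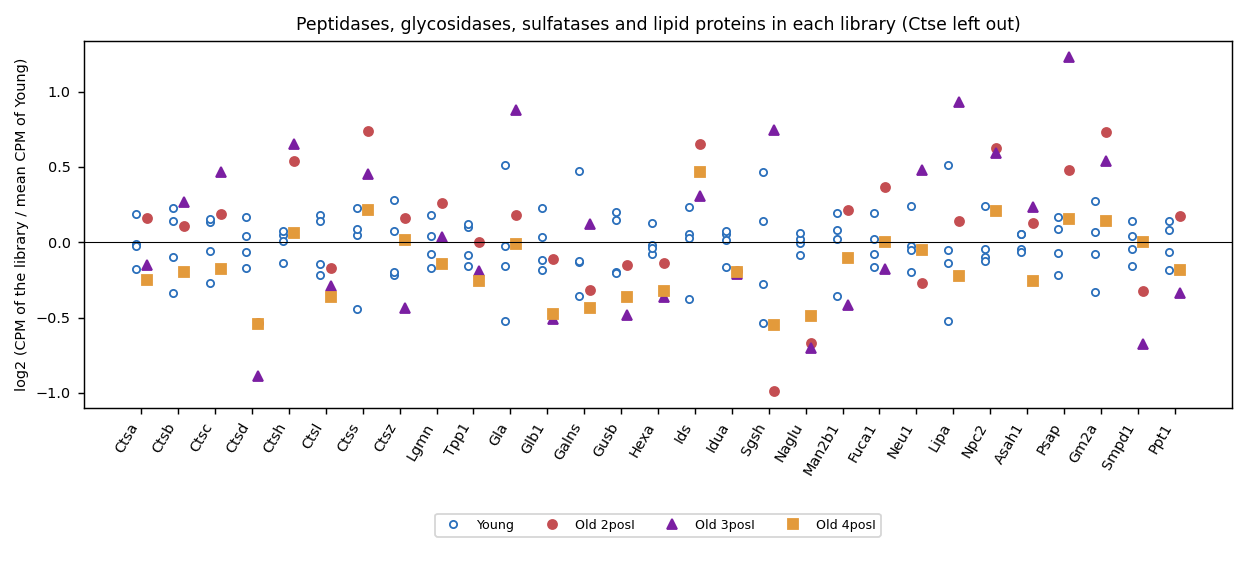
Level of the peptidases, glycosidases, sulfatases and lipid proteins in each library on the y axis, as log2 of its CPM over the mean CPM of the Young libraries (open circles). All 3 Old symbols lie under the Young circles for Ctsd, Hexa, Idua and Naglu and above them for Ids, and the triangle of 3posI is uppermost for Psap, Lipa and Gla.

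Of the 12 glycosidases and sulfatases, which strip sugars and sulfates from glycolipids and glycosaminoglycans, 8 were lower and 4 higher in Old mice (median log2 fold change -0.13, or -0.21 without 3posI, and 9 lower and 3 higher on log2(TPM + 1)). The split was weaker without Young mouse 23C, at 6 lower and 6 higher with a median of -0.08, and without Old mouse 4posI, at 7 lower and 5 higher, also with a median of -0.08. Their summed TPM was 3355 to 3593 in Young and 2573 to 3008 in Old libraries, without overlap. Naglu (chromosome 11, 101070012 to 101077672), the heparan sulfate N-acetylglucosaminidase whose loss causes Sanfilippo syndrome type B, was the member with the smallest p. Naglu was at 443, 470.3, 479 and 491 CPM in Young and 297, 290.0 and 335 CPM in Old libraries. The Young libraries spanned 48.0 CPM, and the highest Old library lay 108.4 CPM below the lowest of them. Its mean was 471 ± 20.3 CPM (SD, n = 4) in Young and 307 ± 24.4 CPM (SD, n = 3) in Old mice, a ratio of 0.65 between the ages and a log2 fold change of -0.62 ± 0.12 (SE), at an adjusted p of 0.0611 by edgeR. Leaving out each library in turn gave log2 fold changes of -0.69 to -0.58 and adjusted p of 0.0688 to 0.183 (edgeR), so the size held while no fit passed the threshold. These fits called 1 to 159 autosomal genes in all, against 141 with every library. Naglu starts 6292 bases downstream of Atp6v0a1 on the same strand, so that the autosomal members with the smallest p are neighbours on chromosome 11.

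Glb1 (chromosome 9, 114401076 to 114474898), the lysosomal beta-galactosidase, was also lower by its fitted value. In Young libraries Glb1 reached 167, 159.7, 186 and 213 CPM, and in Old libraries 168, 127 and 130.1 CPM. Old mouse 2posI reached into the Young range, while 3posI and 4posI were below it. Mean Glb1 was 181 ± 23.6 CPM (SD, n = 4) in Young and 142 ± 22.6 CPM (SD, n = 3) in Old mice, for a log2 fold change of -0.36 ± 0.16 (SE), at an adjusted p of 0.261 by edgeR. It shares exon bases with Tmppe on the same strand, which RSEM gave 667 counts in Young and 399.5 in Old mice on average, and its own counts were not whole in any library. Hexa, the alpha subunit of beta-hexosaminidase, and Idua, the iduronidase of heparan and dermatan sulfate, had all Old libraries below all Young ones at smaller differences. Hexa went from 1779 ± 114 CPM (SD, n = 4) to 1473 ± 123 CPM (SD, n = 3), and Idua from 89.4 ± 6.63 CPM (SD, n = 4) to 77.8 ± 0.59 CPM (SD, n = 3).

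Ids (X chromosome, 70343069 to 70365084), the iduronate sulfatase of Hunter syndrome, went the other way. Its levels were 24.8, 28.1, 18.4 and 24.3 CPM in Young mice and 37.5, 29.5 and 32.9 CPM in Old mice. All Old libraries were above the Young ones, 3posI by 1.45 CPM. Its mean was 23.9 ± 4.05 CPM (SD, n = 4) in Young and 33.3 ± 4.03 CPM (SD, n = 3) in Old mice, for a log2 fold change of 0.48 ± 0.16 (SE), at an adjusted p of 0.175 by edgeR. Per length the libraries overlapped, at 8.55 ± 1.64 TPM (SD, n = 4) and 9.80 ± 0.93 TPM (SD, n = 3), and the effective length that RSEM assigned to Ids was on average 1.13 times as long in Old mice. Gla, Galns, Gusb, Sgsh, Man2b1, Fuca1 and Neu1 ran from -0.33 (Gusb) to 0.40 (Gla), with overlapping libraries, and without 3posI Gla was at 0.09, Sgsh at -0.75, Galns at -0.38, Fuca1 at 0.20, Man2b1 at 0.06 and Neu1 at -0.16.

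Among the 7 lipid hydrolases and lipid-binding proteins 5 were higher and 2 lower, with a median log2 fold change of 0.37, which was 0.00 without 3posI. The largest difference was in Psap (chromosome 10, 60277627 to 60302597), the precursor of the saposins that lift sphingolipids out of membranes for their hydrolases. The Young libraries held 6812, 5518, 7194 and 6089 CPM of it and the Old ones 8941, 14994 and 7126 CPM. Its level in 3posI stood far above every other library, and 4posI lay below the Young library 23C. Mean Psap was 6403 ± 747 CPM (SD, n = 4) in Young and 10354 ± 4120.2 CPM (SD, n = 3) in Old mice, for a log2 fold change of 0.69 ± 0.27 (SE), at an adjusted p of 0.22 by edgeR, but 0.33 without 3posI. Lipa, the acid lipase of cholesteryl esters and triglycerides, likewise had 0.37 with and -0.03 without 3posI.

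Npc2 and Gm2a depended less on that library. Npc2 (chromosome 12, 84754562 to 84773152) hands cholesterol from the lysosomal lumen to the membrane. Npc2 was at 1032, 995, 977 and 1256 CPM in Young and 1647, 1603 and 1230.1 CPM in Old libraries. Libraries 2posI and 3posI were above all Young ones, and 4posI lay just under 29C. Its mean was 1065 ± 129 CPM (SD, n = 4) in Young and 1493 ± 229 CPM (SD, n = 3) in Old mice, for a log2 fold change of 0.49 ± 0.17 (SE), at an adjusted p of 0.179 by edgeR, or 0.43 without 3posI. Gm2a (chromosome 11, 55098115 to 55113029), the activator that presents GM2 ganglioside to beta-hexosaminidase A, had 452, 408, 343 and 519.6 CPM in Young and 714, 626 and 475 CPM in Old libraries. The Old libraries had the same order as for Npc2, with 4posI inside the Young range, and the log2 fold change was 0.49 ± 0.19 (SE), at an adjusted p of 0.219 by edgeR, or 0.47 without 3posI. Asah1, the acid ceramidase, Ppt1, a thioesterase, and Smpd1, the acid sphingomyelinase, had log2 fold changes of 0.05, -0.10 and -0.31 with overlapping libraries, or -0.05, 0.00 and -0.15 without 3posI.

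**Figure D4:**
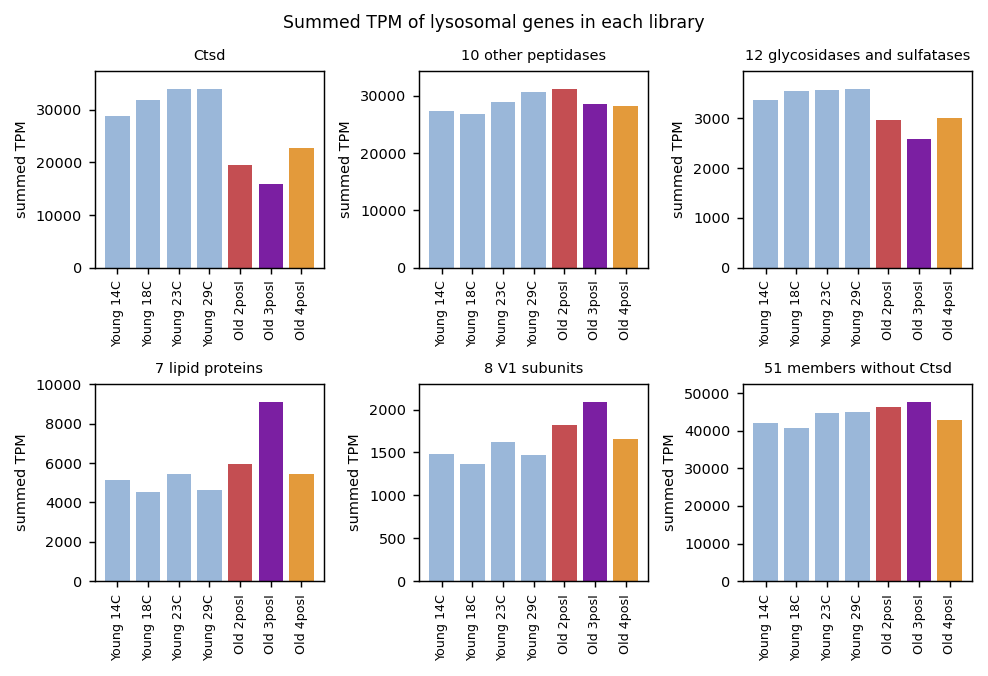
Summed TPM on the y axis, in 6 panels with a bar for each of the 7 libraries and every axis from 0, for Ctsd, the other 10 peptidases, the glycosidases and sulfatases, the lipid proteins, the V1 subunits and all members except Ctsd. Ctsd and the glycosidases are lower in all 3 Old libraries, the V1 subunits higher (1652 to 2090 TPM against 1364 to 1623 TPM), and the sum of the 51 members without Ctsd overlaps between the ages.

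All 3 membrane proteins had fitted values slightly below 0. Lamp1 and Lamp2, the heavily glycosylated proteins that line the lysosome, had log2 fold changes of -0.01 (-0.13 without 3posI) and -0.16. Lamp2 (X chromosome, 38401357 to 38456454) had 807, 824, 784 and 932 CPM in Young and 782, 776 and 684 CPM in Old libraries. The Old libraries were below the Young ones, 2posI by 1.98 CPM, and the log2 fold change was -0.16 ± 0.14 (SE), at an adjusted p of 0.558 by edgeR. Mcoln1 (chromosome 8, 3500457 to 3515232), the calcium channel of mucolipidosis type IV, held 99.2, 92.1, 84.6 and 96.2 CPM in Young and 75.1, 98.6 and 80.3 CPM in Old libraries. These overlapped, and the log2 fold change was -0.14 ± 0.13 (SE), at an adjusted p of 0.602 by edgeR, and -0.26 when 3posI was left out.

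Of the MiT/TFE factors, Tfe3 (X chromosome, 7762560 to 7775202) was the most abundant and the one under 0.05 unadjusted. In Young libraries Tfe3 reached 165, 175, 128 and 141 CPM, and in Old libraries 107, 102 and 120.0 CPM. The highest Old library was below the lowest Young one. Mean Tfe3 was 152 ± 21.5 CPM (SD, n = 4) in Young and 109.9 ± 9.13 CPM (SD, n = 3) in Old mice, for a log2 fold change of -0.47 ± 0.14 (SE), at an adjusted p of 0.146 by edgeR, and -0.54 to -0.40 with each library left out. Tfeb (chromosome 17, 47737030 to 47792419) had 33.5, 28.6, 28.7 and 26.5 CPM in Young and 24.9, 27.2 and 27.1 CPM in Old libraries. The ages overlapped, and the log2 fold change was -0.15 ± 0.12 (SE), at an adjusted p of 0.54 by edgeR. Mitf (chromosome 6, 97807052 to 98021349) had 23.0, 26.1, 36.6 and 21.1 CPM in Young and 21.3, 27.9 and 22.2 CPM in Old libraries. Young mouse 23C was highest, and the other libraries lay between 21.1 and 27.9 CPM, so that the log2 fold change was -0.17 ± 0.21 (SE), at an adjusted p of 0.705 by edgeR. Tfec (chromosome 6, 16833373 to 16898441), the rarest of the 4, had 3.12, 1.43, 3.86 and 0.73 CPM in Young and 2.29, 7.74 and 0.69 CPM in Old libraries. Its log2 fold change of 0.64 ± 0.79 (SE), at an adjusted p of 0.695 by edgeR rested on 3posI and was -0.63 without it, with all 4 factors then below 0. The summed TPM of the factors was 99.6 to 131 in Young and 73.3 to 97.4 in Old libraries.

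**Figure D5:**
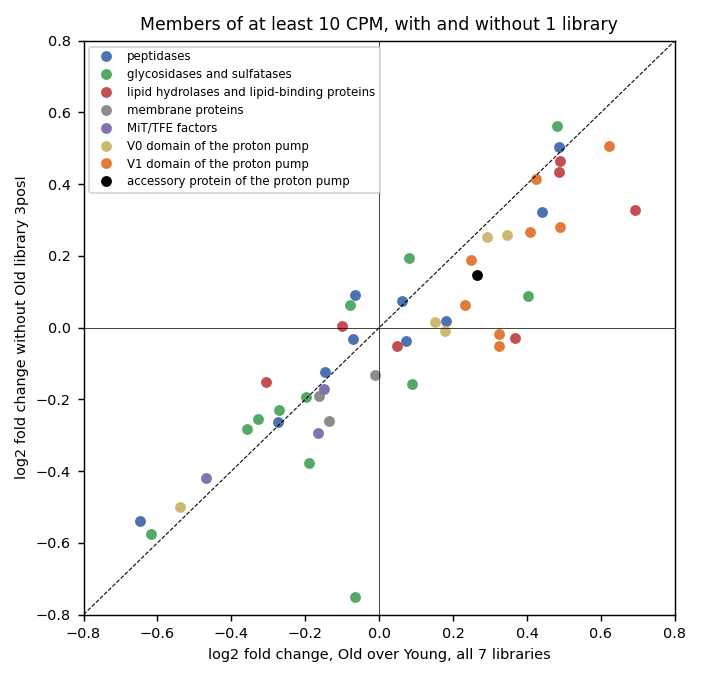
Log2 fold change of each member of at least 10 CPM in all 7 libraries (x axis) against the value without Old library 3posI (y axis), coloured by role, with a dashed line where both are equal. Most V1 subunits and Psap lie under the line on the right, Ctsd, Naglu and Atp6v0a1 stay near it on the lower left, and Sgsh is the point lowest on the y axis at -0.75.

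Effective length, the span of transcript that RSEM takes as the source of fragments, is another readout of the same reads and shows where transcript forms or coverage differ. It was longer in all Old than in all Young libraries for 9 members (Ctsa, Ctsh, Sgsh, Man2b1, Ppt1, Mcoln1, Atp6v0a1, Atp6v1a and Atp6ap1), shorter for Gusb and Fuca1, and overlapping for 41. The share over all genes is not given here, so these counts do not set the members apart from other genes. For Atp6v0a1 it averaged 1.12 times and for Atp6v1a 1.15 times the Young value, so the TPM difference of Atp6v0a1 (91.7 to 53.2) is wider than that of its CPM, and Atp6v1a, at 98.1 TPM in Young and 99.6 TPM in Old mice, had nearly the same mean per length at both ages.

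Further lysosomal genes, 128 in 6 lists (other hydrolases, other membrane proteins and transporters, sorting of hydrolases, other pump subunits and assembly factors, cathepsin inhibitors, and mTORC1 with the regulators of the MiT/TFE factors), were read in the same fit. Of these, 117 were tested, 62 were higher and 55 lower in Old mice, with a median log2 fold change of 0.02, and 14 in each direction were under 0.05 unadjusted (11.97% each, near the 10.1% higher and 8.79% lower of all genes). The calcineurin catalytic subunit Ppp3cb, whose phosphatase activates TFEB, rose. It was at 10.9, 10.9, 10.8 and 11.2 CPM in Young and 25.8, 20.7 and 22.5 CPM in Old libraries, which did not overlap, with a log2 fold change of 1.07 ± 0.13 (SE), at an adjusted p of 0.0236 by edgeR. Galc, the galactosylceramidase of Krabbe disease, fell. It was at 54.6, 57.5, 58.6 and 40.7 CPM in Young and 30.1, 29.5 and 27.4 CPM in Old libraries, with a log2 fold change of -0.87 ± 0.15 (SE), at an adjusted p of 0.0458 by edgeR. With a library left out, Ppp3cb passed in 2 of 7 fits (without 3posI and without 4posI) and Galc in none, at adjusted p of 0.0225 to 0.108 and 0.0625 to 0.158 (edgeR). Those 7 fits called 1 to 159 autosomal genes in all, against 141 with every library, and 159 and 85 of them in the fits without 3posI and without 4posI.

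In the other 4 lists the gene with the smallest p did not pass. Slc36a1, an amino acid exporter of the lysosome, had a log2 fold change of 0.66 ± 0.12 (SE), at an adjusted p of 0.0538 by edgeR, and Dmxl1, which helps assemble the pump, one of 0.77 ± 0.17 (SE), at an adjusted p of 0.0733 by edgeR. Igf2r, the large mannose 6-phosphate receptor that delivers hydrolases, had 1.04 ± 0.26 (SE), at an adjusted p of 0.0992 by edgeR, and Cstb, a cytosolic cathepsin inhibitor, 1.03 ± 0.32 (SE), at an adjusted p of 0.148 by edgeR. Their Old libraries were all above the Young ones, and the value for Cstb was 0.50 without 3posI.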

How the data were processed

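The data were RNA sequencing libraries made by Smart-seq2, an amplified low-input protocol with no molecular identifiers named and, by the kit in the methods, no strand information, from Bodipy+ microglia of 3 Old and 4 Young ischemic mice. The authors checked reads with FastQC 0.11.5, trimmed them with skewer, mapped them with STAR to GRCm38 and quantified GENCODE m15 genes with RSEM (no version was stated for STAR and RSEM in these sources). The deposited tables hold expected counts, TPM, FPKM and effective length per gene and library, of which FPKM was not used.

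Expected counts were rounded, genes with a count above 10 in at least 1 library and not on X, Y or the mitochondrial genome were kept (17559), and Old was compared with Young by the quasi-likelihood test of edgeR 4.0.16 (R 4.3.3) with TMM factors and Benjamini-Hochberg adjustment over all genes. X-linked members came from the same fit with X, Y and mitochondrial genes kept (18173). The standard error is the unshrunken log2 coefficient over the root of the F statistic, whereas the printed log2 fold change is edgeR's shrunken value. DESeq2 1.42.0 and limma 3.58.1 were alternatives. The study's own limma-voom was among the latter. The scripts were tested on simulated data. The deposited TPM served for levels between genes and for sums. Total expected counts were 36574083 to 53002386 per library, and amplified copies cannot be told from separate molecules.

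Positions are from GENCODE vM21 (GRCm38), in which 224 of the 50686 gene identifiers were absent. By it 13 members share exon bases with another gene, 11 of them with one on the opposite strand, whose reads cannot be told apart without strand. Counts were not whole (tolerance 0.001) in all libraries for 8 members (Ctsa, Ctsb, Glb1, Hexa, Ppt1, Lamp1, Atp6v0c and Atp6v1g1) and in some libraries for 5 (Ctsd, Sgsh, Lamp2, Idua and Atp6v1h), which marks shared fragments.

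The members and lists were chosen with earlier results of these data known. Values in every library are given for members with an unadjusted p under 0.05, the 2 of each role with the largest absolute log2 fold change at a mean of at least 10 CPM, the MiT/TFE factors and the 3 highest by TPM, and of the other lysosomal genes for those past an adjusted p of 0.05, with the smallest p of each list named.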

Additional observations from a re-analysis of the deposited data

How the results depend on the processing

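No paired analysis was possible because the animal codes of the Old and Young libraries are not shared. No fit with a library left out called a member, and the other lysosomal genes called numbered 0 to 1. In those fits the members higher at an unadjusted p under 0.05 numbered 3 (without 2posI) to 14 (without 4posI), and those lower 3 to 5. Shares of all genes at that unadjusted threshold are not given for these fits or for the TPM scales below. The unadjusted counts therefore do not set the members apart from other genes. At an adjusted p under 0.05 few genes of any kind were called in most of these fits. Over all autosomal genes the number was 1 without 14C, 18C or 2posI, 2 without 29C and 14 without 23C. It was 85 without 4posI and 159 without 3posI, against 141 with all 7 libraries. Voom with sample quality weights called 1 member (lower) and 5 other lysosomal genes and put Tfec at -0.29, while it called 318 autosomal genes in all. DESeq2 called 2 members as higher, 4 as lower (1 of these 6 X-linked) and 15 other lysosomal genes, where it called 7.97% of all autosomal genes. With effective length as an offset Tfeb was at 0.059. On log2(TPM + 1), 6 members were higher and 9 lower unadjusted, no other lysosomal gene was called, their median was -0.11 and Ctsb was at -0.015. The median over all genes was -0.07 on that scale, and 64 genes were called. On log2(TPM + 0.1) the member counts were 6 and 11, and again no other lysosomal gene was called. The median of the other lysosomal genes was then -0.12 and Ctsb was at -0.015, where the median over all genes itself was -0.13 against -0.01, and 71 genes were called. An adjusted p under 0.1 gave 2 members, both lower, and 9 other lysosomal genes, where 3.63% of all autosomal genes passed. Leaving out a library turned Ctsb (-0.037 to 0.19), Mitf (-0.29 to 0.026) and Tfec (-0.63 to 1.13). Apart from Ctsb, Mitf, Tfec and Tfeb, the members with values in every library kept their direction in all of these settings. With RLE or upper-quartile factors, no or another filter on low counts, or plain voom the counts stayed within 1.5 times. The cause of each shift was not tested. With 3 mice against 4, an exact permutation test of 1 gene cannot go below 0.0286.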
